A study of Mus musculus with 15 samples.

Results

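Genes of glycolysis and of the response to low oxygen were described in microglia derived in culture from mouse embryonic stem cells. The members were a list of 36 gene symbols, chosen with earlier results of these data known. Each symbol that named a row of the deposited table was taken, whatever its values. Of the 36, 33 had a row among the 11201 genes of the table, and the lactate dehydrogenase gene Ldhb, the lactate carrier gene Slc16a3 and the oxygen sensor gene Egln3 were not analysed here. RNA sequencing covered 15 libraries from cells (ESdM) that were made from C57BL/6-ATCC embryonic stem cells and kept in N2 medium. In 6 libraries the cells were untreated, and 3 libraries each came from cells given 1 of 3 stimuli for 24 h. The first stimulus was LPS+IFNg, in which lipopolysaccharide, a bacterial cell wall component, was given at 500 ng/ml together with the cytokine interferon gamma at 20 ng/ml. The others were IL4 (interleukin 4) at 100 U/ml and TGFb (transforming growth factor beta) at 50 ng/ml. All groups shared the 1 stem cell source, and no label names a change of oxygen or of glucose in any group, so the words hypoxia response stand here for the listed genes and not for a treatment.

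In glycolysis, glucose enters through carriers in the cell membrane, is phosphorylated by hexokinase and is split to pyruvate, which lactate dehydrogenase turns to lactate and monocarboxylate carriers export. Transcription of many of these genes is raised by hypoxia-inducible factor, whose alpha subunit HIF1A is hydroxylated and degraded when oxygen is plentiful and can also accumulate in activated macrophages and microglia. Classically activated macrophages and microglia are known for a shift towards glycolysis, while IL4-activated cells are known to rely more on mitochondrial respiration.

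Values are normalized read counts, that is, reads per gene divided by 1 factor per library. Fold changes are differences of log2(value + 1), written as stimulus minus untreated, with their standard error (SE), and p-values from limma were adjusted by the Benjamini-Hochberg method over all 11138 genes tested. A gene was called, and is said to have risen or fallen, where that adjusted p was below 0.05. The labels name no separate cultures for the libraries of 1 group, so each p-value rests on a spread that may be technical alone. Library totals, recovered from the size of 1 read in each library, were 2682564 to 18676181 reads in the untreated group, 7589049 to 10170627 with LPS+IFNg, 5523959 to 14361911 with IL4 and 3715535 to 13403411 with TGFb. Replicate 3 of LPS+IFNg stood apart: it was above both other LPS+IFNg libraries in 25 of the 33 members, below both in 7 and between them in 1, and it exceeded their mean by a median log2 difference of 0.203 over the members and 0.00551 over all genes tested. In that signed median rises and falls offset each other. Without regard to sign the median difference was 0.238 over the members and 0.211 over all genes, so the departure was not particular to the members. Of 12 microglial marker genes, 10 were in the table, with a summed value of 18830 to 20029 untreated, 18116 to 20205 with LPS+IFNg, 21162 to 21619 with IL4 and 25228 to 26554 with TGFb. Among these, Cx3cr1 and Tmem119, which define microglia in the brain, were low in untreated cells (means 2.60 and 7.62) and higher with TGFb (39.5 and 82.3), while P2ry12 and C1qa were not analysed here. No marker listed for embryonic stem cells, neurons, fibroblasts or lymphocytes had a row, and the astrocyte, oligodendrocyte and endothelial lists had 2 of 6, 2 of 6 and 1 of 4 in the table. The endothelial marker Pecam1 was at 1.00 to 1.89 untreated and 6.02 to 15.8 with LPS+IFNg, the astrocyte pair Slc1a2 and Aldh1l1 summed to 39.6 to 80.9 and 100.0 to 110.9, and their part in the results was not tested.

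With LPS+IFNg, 18 of the 33 members rose, 11 fell and 4 were not called. These are 54.5% of members higher, beside 29.5% of all genes tested, and 33.3% lower, beside 29.4%. By role, 11 of 17 glycolytic enzyme genes rose and 3 fell, with 4 of the rises (Aldoa, Tpi1, Pkm and Ldha) turning below 0 after quantile normalization, and the 11 hypoxia-response genes split into 6 higher and 4 lower. Quantile normalization sets values by rank and can shrink changes of the most abundant genes, while the median over all genes shifted by -0.0851. Its part in these turns was not tested. At the same total per library Aldoa and Pkm kept their calls, while Tpi1 (adjusted p = 0.894) and Ldha (adjusted p = 0.977) lost them. All 3 genes of enzymes that switch flux were called lower, of which only Pfkfb4 kept the call with each library left out in turn. Most changes were below 2-fold, with a median absolute log2 fold change of 0.34 over the members and 0.31 over all genes tested. The signed medians, in which rises and falls offset each other, were 0.19 and 0.00. On the fitted log2 scale 2 called members reached 2-fold, Hk3 upwards and Ankrd37 downwards, with P4ha1 (0.98) and Ero1l (0.95) just short of it. In bulk libraries such as these, fewer expressing cells and less RNA per cell cannot be told apart.

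With IL4 11 members rose, 3 fell and 19 were not called, which is 33.3% higher beside 9.89% of all genes and 9.09% lower beside 7.33%. The count of 11 was 6 without IL4 replicate 1 and 19 in a fit of these 2 groups alone. TGFb raised 15 members and lowered 7, which is 45.5% beside 24.1% of all genes and 21.2% beside 23.4%. With 1 library left out the TGFb counts were 15 to 16 and 5 to 7. In a fit of TGFb and untreated alone Hk2, Vegfa, Ero1l and Mxi1 were also called higher, and Pfkp and Tpi1 lower. The median log2 fold changes over the members were 0.15 with IL4 and 0.15 with TGFb, beside 0.00 and 0.01 over all genes. None of the 11 hypoxia-response members fell with IL4 by limma, also at an unadjusted p below 0.05, where 5 rose (7 unadjusted), and with TGFb 6 rose and 1 fell. Members called at 2-fold or more on the fitted log2 scale were Ankrd37 with IL4, upwards, and Pfkfb3 and Bnip3 with TGFb, upwards. All 3 comparisons use the same 6 untreated libraries.

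Over the 3 stimuli, 32 members were called at least once, 9 were called with every stimulus, and Hk2 was called with none. Only Bnip3l rose with all 3, Slc16a1 and Pdk1 fell with all 3, and 12 members rose with 1 stimulus and fell with another. Of these 3 genes only Slc16a1 kept all its calls with each library left out in turn, while Bnip3l and Pdk1 each lost 2. Scaling each library to an equal total shifted the median over all genes tested by -0.125 with LPS+IFNg, -0.0654 with IL4 and -0.0765 with TGFb, and the balance of directions moved with it. On that scale 14 members were higher and 13 lower with LPS+IFNg, 8 and 4 with IL4, and 14 and 9 with TGFb. The share of called members that were higher was 62.1%, 78.6% and 68.2% in the main analysis, 51.9%, 66.7% and 60.9% at the same total, and 43.5%, 64.3% and 56.5% after quantile normalization. Over all called genes these shares were 50%, 57.4% and 50.8% in the main analysis, 35.5%, 34% and 37.8% at the same total, and 38.6%, 47.6% and 45.1% after quantile normalization.

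**Figure D1:**
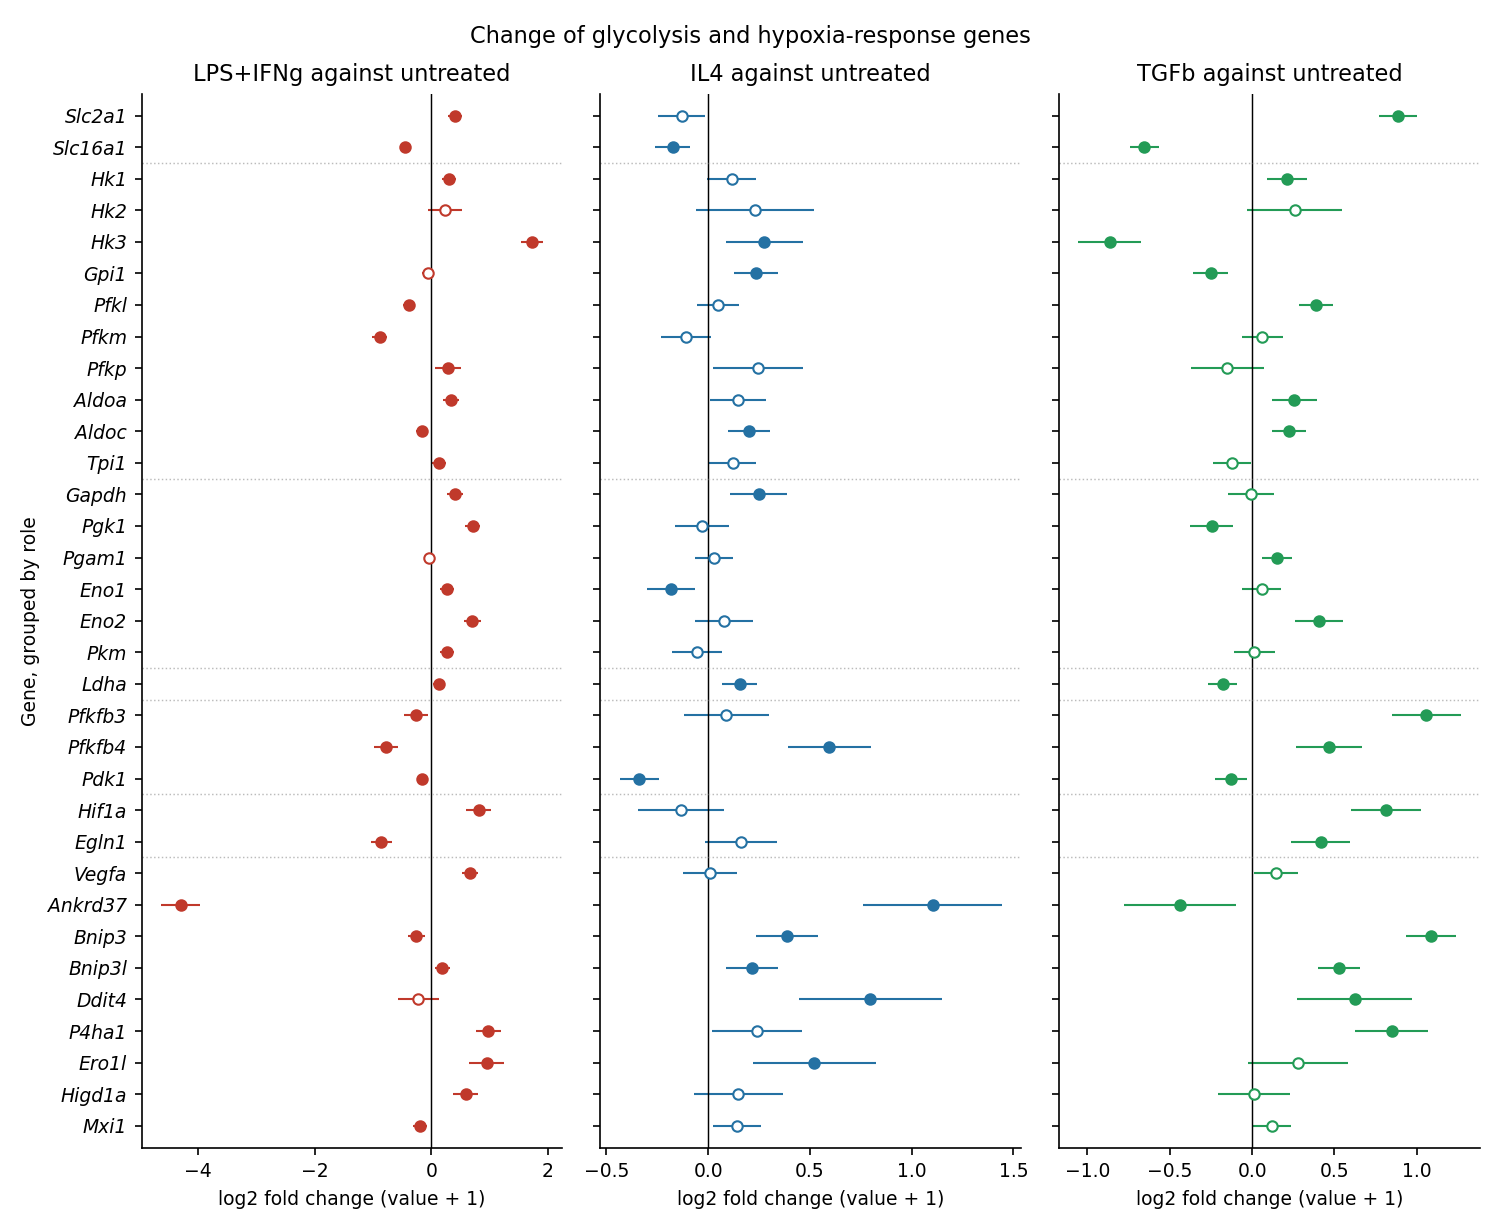
Log2 fold change of each of the 33 members (y axis, grouped by role) against untreated, in 1 panel per stimulus with its own x axis. Points are limma estimates on the log2(value + 1) scale, bars are 95% confidence intervals, filled points were called and open points were not, with Ankrd37 at -4.30 far to the left of the other members in the LPS+IFNg panel.

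The stretch of 200 bases before the RefSeq start site (GRCm38.p6) is printed for 6 members that carry the results: Ankrd37, Egln1 and Bnip3, which fell with LPS+IFNg, and P4ha1, Pgk1 and Hk3, which rose. Capitals mark ACGTG and GCGTG, the core letters that hypoxia-inducible factor is known to bind, on either strand (CACGT and CACGC in the reverse sense), and overlapping matches were each counted, so that the palindrome CACGTG counts as 2. The windows, each read on its gene's strand, are chr8:45999851-46000050 (minus), chr8:124949255-124949454 (minus), chr7:138909507-138909706 (minus), chr10:59323096-59323295 (plus), chrX:106186900-106187099 (plus) and chr13:55021386-55021585 (minus).
Ankrd37: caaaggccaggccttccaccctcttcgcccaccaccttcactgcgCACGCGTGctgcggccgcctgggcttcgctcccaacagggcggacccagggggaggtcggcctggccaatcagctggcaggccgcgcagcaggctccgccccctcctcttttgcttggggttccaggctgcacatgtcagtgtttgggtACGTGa
Egln1: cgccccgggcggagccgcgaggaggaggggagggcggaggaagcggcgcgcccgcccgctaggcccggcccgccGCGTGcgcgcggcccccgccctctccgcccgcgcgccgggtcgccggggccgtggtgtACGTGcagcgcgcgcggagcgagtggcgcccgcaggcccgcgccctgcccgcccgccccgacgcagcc
Bnip3: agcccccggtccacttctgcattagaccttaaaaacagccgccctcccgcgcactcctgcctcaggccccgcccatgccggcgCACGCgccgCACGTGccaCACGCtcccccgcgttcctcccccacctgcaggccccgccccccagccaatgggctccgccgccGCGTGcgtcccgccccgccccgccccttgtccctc
P4ha1: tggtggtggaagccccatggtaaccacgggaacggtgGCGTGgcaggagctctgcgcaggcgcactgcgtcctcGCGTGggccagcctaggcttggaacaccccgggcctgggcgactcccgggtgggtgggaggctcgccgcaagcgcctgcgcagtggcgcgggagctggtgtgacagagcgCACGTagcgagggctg
Pgk1: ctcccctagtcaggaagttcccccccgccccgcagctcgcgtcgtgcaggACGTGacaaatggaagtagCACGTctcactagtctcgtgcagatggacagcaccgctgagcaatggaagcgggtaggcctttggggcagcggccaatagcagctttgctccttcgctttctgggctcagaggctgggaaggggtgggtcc
Hk3: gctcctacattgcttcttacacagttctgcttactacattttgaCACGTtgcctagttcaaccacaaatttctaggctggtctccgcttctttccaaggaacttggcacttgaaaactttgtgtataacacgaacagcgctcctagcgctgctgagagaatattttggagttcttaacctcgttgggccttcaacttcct
Bnip3 held 5 matches in this stretch, including 1 CACGTG, Ankrd37 and P4ha1 held 3, Egln1 and Pgk1 held 2 and Hk3 held 1. Windows ran from 250 bases before to 50 after the start, and a gene could have several. Of the 32 members with a RefSeq window, 29 held a match in at least 1 window (90.6%). This stands beside 68.5% of the 9023 genes of the table with a window and 46.7% of all 27025 genes with a window. Counted by window, a match was in 79.2% of 48 member windows, 62.6% of 11478 windows of the table's genes and 43.8% of all 32851 windows. At least 2 matches in a window were found for 75% of these members and 39.7% of the table's genes. Gpi1, Tpi1 and Eno2 held none in these windows, and no window was listed for Bnip3l. A match describes the letters and is no measurement of binding. Many members were listed as genes that hypoxia-inducible factor is known to raise, so a higher share can follow from the list itself. A share by gene also grows with the number of windows per gene. Members that fell and members that rose with LPS+IFNg both held matches.

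Among the carriers, the glucose carrier gene Slc2a1 (chromosome 4, 119108711 to 119137983, plus strand) rose with LPS+IFNg and more with TGFb. Its untreated values ran from 771 to 911 with a median of 828. The LPS+IFNg libraries were at 1042, 1136 and 1140.3, the TGFb libraries at 1639, 1489.7 and 1494 and the IL4 libraries at 749, 754 and 781. Both raised groups lay wholly above the untreated range, and the TGFb libraries lay wholly above the LPS+IFNg libraries (log2 difference -0.48 for LPS+IFNg minus TGFb, adjusted p = 2.35e-06). The log2 fold change was 0.41 (SE 0.05, adjusted p = 3.46e-06) with LPS+IFNg and 0.88 (SE 0.05, adjusted p = 2.67e-10) with TGFb, and -0.13 with IL4, which was not called (adjusted p = 0.114) and was called lower at the same total per library (adjusted p = 0.0177).

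Slc16a1 (chromosome 3, 104638668 to 104658462, plus strand), which encodes a proton-linked carrier of lactate and pyruvate, fell with every stimulus. Untreated libraries lay between 2499.7 and 2785 (median 2638). The values were 1904, 1931 and 1949.9 with LPS+IFNg, 2314, 2353 and 2311 with IL4 and 1648, 1705 and 1649.9 with TGFb, none of which overlapped the untreated range or each other. The log2 fold changes were -0.44 (SE 0.04, adjusted p = 2.53e-08), -0.17 (SE 0.04, adjusted p = 0.00567) and -0.65 (SE 0.04, adjusted p = 3.42e-10). Slc2a1 and Slc16a1 moved in opposite directions with LPS+IFNg and with TGFb.

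The hexokinase genes, whose products phosphorylate glucose at the entry to glycolysis, differed from each other in their response. Hk3 (chromosome 13, 55005985 to 55021385, minus strand), a hexokinase of blood and myeloid cells, had the largest increase of any member with LPS+IFNg. Its untreated values were 3014 to 3417 (median 3256), and with LPS+IFNg they were 9175, 9523 and 13849. With IL4 they were 3810.4, 4135 and 3759 and with TGFb 1775, 1848 and 1683. No stimulated group overlapped the untreated libraries, and replicate 3 of LPS+IFNg was the highest library of all. The mean was 3.37-fold higher with LPS+IFNg, a log2 fold change of 1.73 (SE 0.09, adjusted p = 7.1e-12), and without replicate 3 it was 1.54. With TGFb Hk3 fell, with a log2 fold change of -0.87 (SE 0.09, adjusted p = 2.86e-07). The rise with IL4, 0.28 (SE 0.09, adjusted p = 0.0427), no longer passed when any 1 of the IL4 libraries or of untreated replicates 1, 2, 3, 4 and 6 was left out (adjusted p = 0.058 to 0.201).

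Hk1, the broadly expressed hexokinase, rose with LPS+IFNg, from 1285 ± 44.7 to 1598 ± 190.5, and with TGFb, to 1486 ± 63.6, by 0.31 (SE 0.06, adjusted p = 0.000162) and 0.21 (SE 0.06, adjusted p = 0.0061). The TGFb call of Hk1 was lost when the 3 shallowest libraries (untreated replicates 1 and 4 and TGFb replicate 2) were left out together (adjusted p = 0.0721). Hk2, the isoenzyme known as a target of hypoxia-inducible factor, was called with no stimulus in the main fit. Its untreated values ran from 1311 to 1588, and the LPS+IFNg libraries were at 1366, 1329.9 and 2573, so that replicate 3 was 1.91 times the mean of the other LPS+IFNg libraries. The log2 fold change of Hk2 with LPS+IFNg was 0.24 (95% interval -0.05 to 0.53) and was -0.07 without replicate 3. It was called higher without replicate 1 (adjusted p = 0.0327) or without replicate 2 (adjusted p = 0.0194). With IL4 and TGFb all Hk2 libraries lay above the untreated range, at 1777, 1611 and 1606 and at 1772, 1622 and 1700.0. The adjusted p was 0.293 and 0.134 in the main fit, whose spread includes the LPS+IFNg libraries. In fits of only the 2 groups compared Hk2 was called higher with IL4 (0.23, adjusted p = 0.0127) and with TGFb (0.26, adjusted p = 0.00136). With library weights it was called higher too (adjusted p = 0.0174 and 0.000175).

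Shares within an enzyme family were taken per kb of the longest transcript, which allows levels of different genes to be compared and does not depend on scaling between libraries. Hk3 made up 64.2% ± 0.550 (SD, n = 6) of the hexokinase signal in untreated cells, 83.0% ± 0.366 (SD, n = 3) with LPS+IFNg, 65.9% ± 1.24 with IL4 and 45.6% ± 0.959 with TGFb. The Hk3 share was thus 18.8 percentage points higher with LPS+IFNg, and with TGFb it was lower by nearly as much (-18.6 points). Shares within a family add up to the whole, so those of Hk1 and Hk2 together had to offset that of Hk3. They moved by -9.92 and -8.86 points with LPS+IFNg and by 9.55 and 9.06 points with TGFb. A lower share is not a lower level: with LPS+IFNg Hk1 itself rose by 0.31 while its share fell. In each of these 6 cases, which are not independent of each other, the groups did not overlap. The exact two-sided permutation p was 0.0238, the smallest that 6 libraries against 3 can give. It was 0.0338 after Benjamini-Hochberg adjustment over 27 such tests in 5 families, of which 19 passed. The Hk3 share with IL4 did not pass (exact permutation, adjusted p = 0.0612).

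In the phosphofructokinase family, which catalyses the committed step of glycolysis, Pfkm and Pfkl fell with LPS+IFNg and Pfkp was called higher. Pfkm (chromosome 15, 98092589 to 98132451, plus strand), the muscle-type gene, was at 1028 to 1157 untreated and at 613, 597 and 531 with LPS+IFNg, a log2 fold change of -0.89 (SE 0.06, adjusted p = 2.28e-10) with no overlap. Pfkl, the liver-type gene, fell from 964 ± 36.1 to 740.0 ± 45.9 with LPS+IFNg and rose to 1262 ± 12.3 with TGFb, with log2 fold changes of -0.38 (SE 0.05, adjusted p = 2.17e-06) and 0.39 (SE 0.05, adjusted p = 3.29e-06). Pfkp, the platelet-type gene, was at 1738 to 1995 untreated and at 1861, 1928 and 3071 with LPS+IFNg. Only replicate 3 lay above the untreated range, and the call, 0.29 (SE 0.10, adjusted p = 0.0238), was lost without it (log2 fold change 0.06, adjusted p = 0.335) and at the same total per library (adjusted p = 0.121). Pfkp shares 5.58% of its exon bases with Pitrm1 on the other strand.

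By share, Pfkp was at 52.5%, 52.6% and 66.5% of the family in the 3 LPS+IFNg libraries, against 41.1% ± 1.03 untreated. The share of Pfkm fell from 34.8% ± 0.753 to 21.6% ± 4.46. With IL4 the shares moved in the same directions, with Pfkp at 46.0% ± 0.690 and Pfkm at 30.5% ± 0.343. With TGFb the Pfkp share was 35.3% ± 0.334 and the Pfkl share rose from 24.2% ± 0.979 to 30.1% ± 1.000. Each of these shifts passed the exact permutation test (adjusted p = 0.0338). Their groups did not overlap, so leaving out 1 library could not turn a direction and says nothing further about it. The size did depend on single libraries: the Pfkp share difference with LPS+IFNg ran from 11.4 to 18.5 points with 1 library left out.

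**Figure D2:**
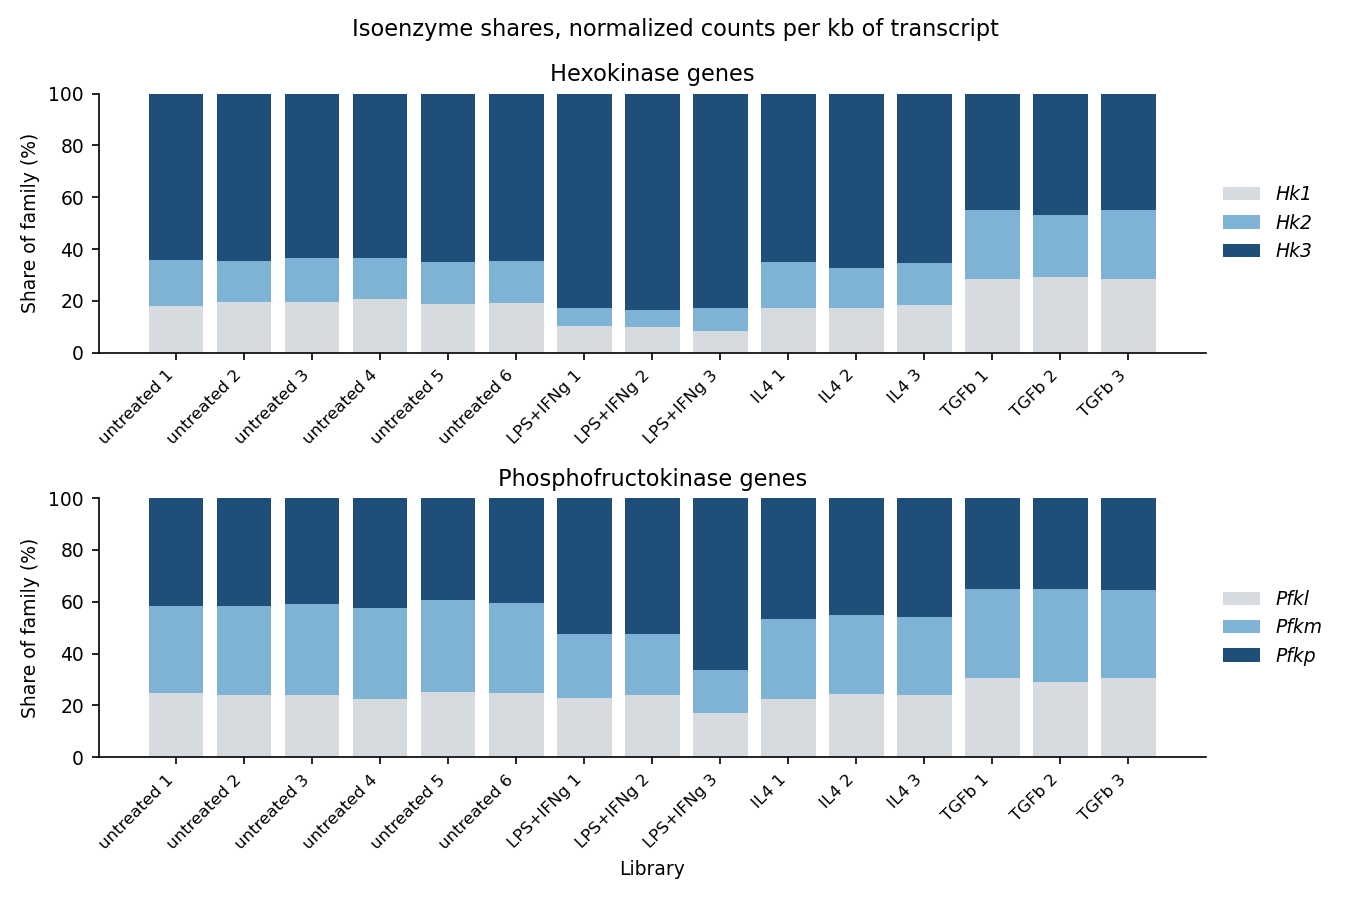
Share of each gene in the hexokinase family (upper panel) and the phosphofructokinase family (lower panel), in percent of the summed normalized counts per kb of transcript (y axis), with 1 stacked bar per library (x axis). The dark Hk3 part is near 83% in all 3 LPS+IFNg libraries and between 44.96% and 46.7% in the TGFb libraries, and the dark Pfkp part is largest in LPS+IFNg replicate 3 at 66.5%.

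The other genes of the upper steps had smaller changes. Gpi1, which encodes the isomerase of glucose phosphate, rose with IL4 from 3862 ± 62.3 to 4551 ± 152 (0.24, SE 0.05, adjusted p = 0.00332) and fell with TGFb to 3246 ± 213 (-0.25, SE 0.05, adjusted p = 0.000548). It was not called with LPS+IFNg (log2 fold change -0.05), where it was called lower without replicate 3 (-0.12, adjusted p = 0.0283) and at the same total per library (-0.18). The abundant aldolase gene Aldoa rose with LPS+IFNg by 0.34 (SE 0.07, adjusted p = 0.000206) and with TGFb by 0.26 (SE 0.07, adjusted p = 0.00334), although after quantile normalization these changes were -0.02 and 0.03 (adjusted p = 0.78 and 0.603). Aldoc, its minor relative, rose with IL4 (0.20) and TGFb (0.23). With LPS+IFNg Aldoc fell, at -0.16 (SE 0.05, adjusted p = 0.0104), with overlapping libraries, and this call was lost without replicate 2 (adjusted p = 0.0517). The share of Aldoc in the aldolase family was 4.71% ± 0.162 untreated and 3.40% ± 0.286 with LPS+IFNg (exact permutation, adjusted p = 0.0338). Tpi1, the triose phosphate isomerase gene, was called higher with LPS+IFNg at 0.13 (SE 0.06, adjusted p = 0.046). That call did not hold without replicate 3 (0.05, adjusted p = 0.379) or without any 1 of untreated replicates 2 to 6 (adjusted p = 0.0541 to 0.0817), and the direction turned after quantile normalization (-0.05).

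In the lower steps of glycolysis, where ATP is made, 5 of 6 genes rose with LPS+IFNg and none fell, at an unadjusted p below 0.05 too, although Pgam1 was lower at the same total per library (-0.16, adjusted p = 0.0147) and after quantile normalization (-0.25, adjusted p = 0.00185). After quantile normalization Pkm also turned (-0.05), Eno1 and Gapdh were no longer called, and only Pgk1 and Eno2 remained higher. Phosphoglycerate kinase, encoded by Pgk1 (chromosome X, 106187100 to 106203699, plus strand), catalyses the first of the ATP-making steps. Pgk1 was at 5141 to 5957 untreated (median 5532) and at 8467, 8365 and 10424 with LPS+IFNg, well above that range. It was at 5573, 5441 and 5230.1 with IL4, within the range, and at 4772, 4734 and 4484 with TGFb, below it. The log2 fold changes were 0.71 (SE 0.06, adjusted p = 1.46e-08) with LPS+IFNg, 0.61 without replicate 3, and -0.24 (SE 0.06, adjusted p = 0.00353) with TGFb.

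The neuron-type enolase gene Eno2 (chromosome 6, 124760053 to 124769673, minus strand) rose with LPS+IFNg and with TGFb. It was at 456 to 530.0 untreated, 841, 759 and 837 with LPS+IFNg, 599, 473 and 512 with IL4 and 644, 694 and 644 with TGFb. Both increases, 0.70 (SE 0.07, adjusted p = 5.95e-08) and 0.41 (SE 0.07, adjusted p = 8.53e-05), were without overlap. The more abundant Eno1 rose with LPS+IFNg by 0.27 (SE 0.06, adjusted p = 0.000368), but by 0.09 after quantile normalization, which was not called (adjusted p = 0.127), and fell with IL4, at -0.18 (SE 0.06, adjusted p = 0.0286), where the IL4 call was lost without IL4 replicates 2 or 3 or untreated replicates 1 or 3 (adjusted p = 0.0528 to 0.189). The share of Eno2 in the pair of Eno1 and Eno2 rose from 8.13% ± 0.223 to 10.7% ± 0.961 with LPS+IFNg, 9.61% ± 0.747 with IL4 and 10.1% ± 0.292 with TGFb (exact permutation, adjusted p = 0.0338 for each).

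Gapdh, which encodes the enzyme that oxidises glyceraldehyde phosphate and is often used as a reference gene, was called higher with 2 stimuli. Both calls were kept at the same total per library and lost after quantile normalization. It rose from 11198 ± 399.6 to 14945 ± 2224 with LPS+IFNg (0.41, SE 0.07, adjusted p = 3.44e-05, and 0.11 with adjusted p = 0.0614 after quantile normalization). With IL4 it rose to 13289.6 ± 384 (0.25, SE 0.07, adjusted p = 0.0136), a call lost without IL4 replicate 1 (adjusted p = 0.0649) and after quantile normalization (0.07, adjusted p = 0.395). With TGFb it was at 11161 ± 489 and not called, but called lower after quantile normalization (-0.12, adjusted p = 0.0434). The pyruvate kinase gene Pkm was at 19941 to 21533 untreated and at 22768, 23337 and 28108 with LPS+IFNg, a rise of 0.27 (SE 0.06, adjusted p = 0.000675) that was 0.17 without replicate 3 and -0.05 after quantile normalization. Pgam1, the phosphoglycerate mutase gene, was called only with TGFb, where it rose by 0.15 (SE 0.04, adjusted p = 0.00866) and no longer passed at the same total per library (adjusted p = 0.263) or after quantile normalization (adjusted p = 0.595). Ldha, whose product turns pyruvate to lactate, rose with LPS+IFNg (0.12, SE 0.04, adjusted p = 0.0157) and IL4 (0.15, SE 0.04, adjusted p = 0.0142) and fell with TGFb (-0.18, SE 0.04, adjusted p = 0.00174). The rise of Ldha with LPS+IFNg was -0.0013 at the same total per library and -0.08 after quantile normalization, and the rise with IL4 was lost without IL4 replicates 1 or 2 (adjusted p = 0.0599 and 0.082), at the same total (adjusted p = 0.0816) and after quantile normalization (adjusted p = 0.214). Several of these genes, Gapdh, Pgk1, Ldha, Eno1, Pkm, Aldoa and Tpi1 among them, have processed pseudogene copies, and how shared reads were counted is not given in the sources used here.

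**Figure D3:**
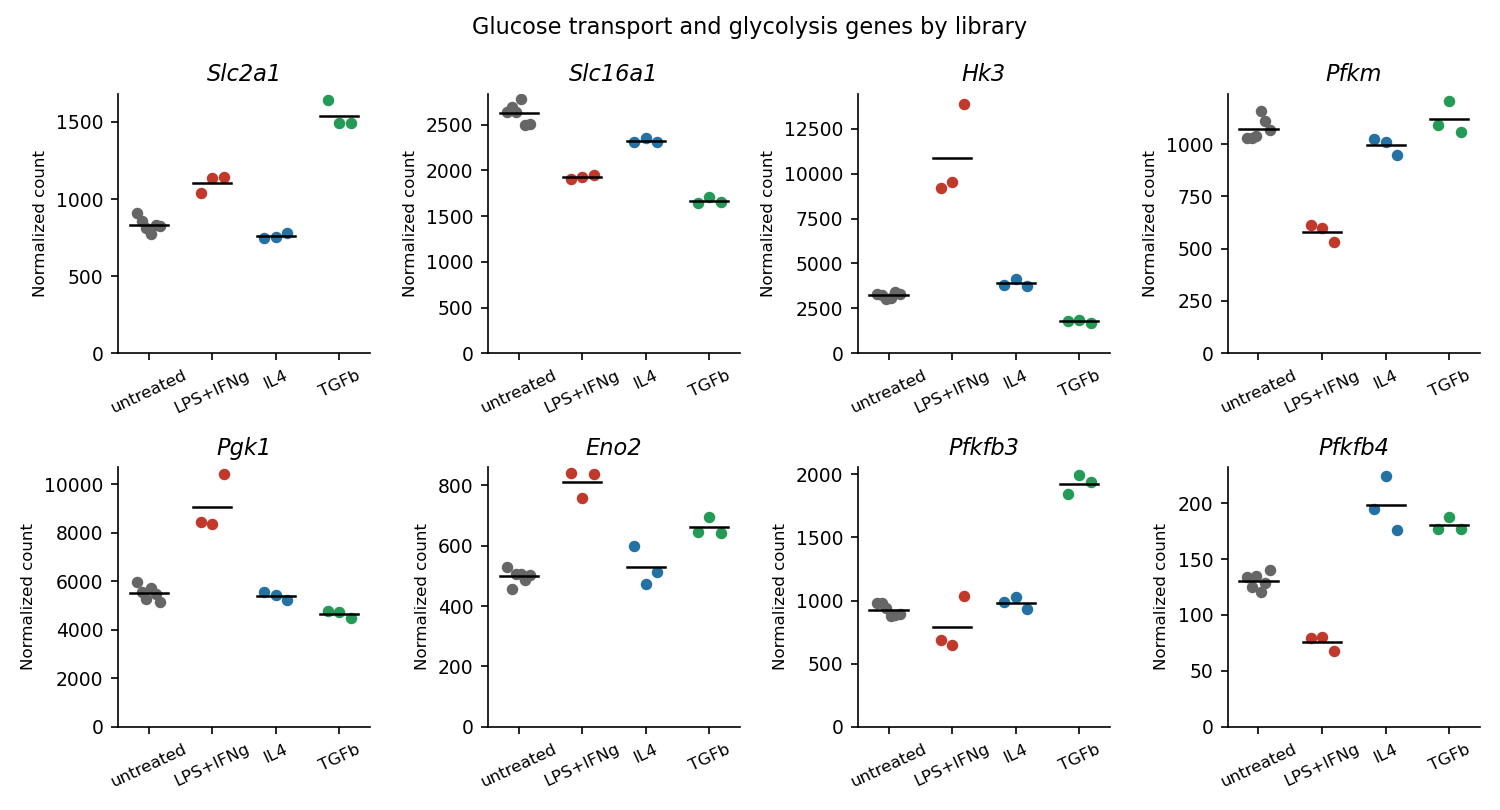
Normalized counts (y axis, from 0) of 8 carrier, enzyme and regulator genes in each library, by group (x axis), with group means as lines. Hk3 and Pgk1 are highest with LPS+IFNg, Slc2a1 and Pfkfb3 are highest with TGFb, and Slc16a1 lies below the untreated libraries with every stimulus.

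By role, 3 further genes encode switches of glycolytic flux. Pfkfb3 and Pfkfb4 encode enzymes that set the level of the sugar phosphate that activates phosphofructokinase, and Pdk1 encodes a kinase that shuts pyruvate dehydrogenase and so keeps pyruvate out of the mitochondria. Pfkfb3 (chromosome 2, 11471433 to 11554077, minus strand) was at 874 to 984 untreated and at 1842, 1991 and 1943 with TGFb, which is 2.08-fold higher, a log2 fold change of 1.06 (SE 0.10, adjusted p = 8.23e-08). With LPS+IFNg its libraries were at 684, 649 and 1034, so replicates 1 and 2 lay below the untreated range and replicate 3 above it. The resulting decrease, -0.26 (SE 0.10, adjusted p = 0.0314), was -0.47 without replicate 3 (adjusted p = 1.88e-07) and was lost without replicate 1 (-0.17, adjusted p = 0.188), replicate 2 (-0.14, adjusted p = 0.258) or untreated replicates 1 or 2 (both adjusted p = 0.0589).

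Pfkfb4 (chromosome 9, 108991778 to 109032228, plus strand) went the other way with LPS+IFNg than with IL4 and TGFb. It was at 120.5 to 139.9 untreated, 79.0, 80.0 and 67.7 with LPS+IFNg, 195, 224 and 176 with IL4 and 176, 188 and 177 with TGFb. No stimulated group overlapped the untreated libraries, at -0.78 (SE 0.10, adjusted p = 1.33e-06), 0.60 (SE 0.10, adjusted p = 0.000253) and 0.47 (SE 0.10, adjusted p = 0.000605). Its share of the Pfkfb3 and Pfkfb4 pair was 16.2% ± 0.959 untreated, 12.2% ± 3.39 with LPS+IFNg, 21.6% ± 1.36 with IL4 and 11.4% ± 0.261 with TGFb, so with TGFb the share fell although the gene itself rose. The LPS+IFNg libraries were at 13.7%, 14.5% and 8.27%, and without replicate 3 the difference from untreated was -2.15 points in place of -4.09. Pdk1 fell slightly with each stimulus, from 909 ± 32.6 to 816 ± 36.1, 718 ± 14.3 and 830.4 ± 14.2 with LPS+IFNg, IL4 and TGFb. The largest decrease of Pdk1 was with IL4, -0.34 (SE 0.05, adjusted p = 4.06e-05). The LPS+IFNg call (-0.16) was lost without replicate 1 (adjusted p = 0.053), and the TGFb call (-0.13) without TGFb replicates 1 or 3 or untreated replicate 5 (adjusted p = 0.055 to 0.101).

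Hif1a (chromosome 12, 73901375 to 73947530, plus strand), the gene of the oxygen-regulated alpha subunit itself, rose with LPS+IFNg and with TGFb. Untreated libraries were at 894 to 1012 (median 966). The values were 1516, 1404 and 2261 with LPS+IFNg and 1638, 1763 and 1672 with TGFb, all above that range, and 858, 960.0 and 818 with IL4. The log2 fold changes were 0.81 (SE 0.10, adjusted p = 1.47e-06) and 0.81 (SE 0.10, adjusted p = 2.59e-06). The difference between these stimuli had a 95% interval of -0.25 to 0.24, but without LPS+IFNg replicate 3 the LPS+IFNg change was 0.60 and Hif1a was lower than with TGFb (-0.21, adjusted p = 0.00752). RNA levels do not measure the stability of the protein, which is where oxygen acts.

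Egln1 (chromosome 8, 124908587 to 124949324, minus strand) encodes the main prolyl hydroxylase that marks HIF1A for degradation, and is itself known to be induced by hypoxia-inducible factor. Its untreated libraries were tightly grouped at 399.5 to 433. They were 224, 275 and 194 with LPS+IFNg, 451, 498 and 447 with IL4 and 534, 608 and 525 with TGFb. Every LPS+IFNg library was below, and every IL4 and TGFb library above, the untreated range. The log2 fold change was -0.86 (SE 0.08, adjusted p = 6.36e-08) with LPS+IFNg and 0.42 (SE 0.08, adjusted p = 0.000501) with TGFb, while the IL4 change of 0.16 was not called in the main fit. It was called in a fit of IL4 and untreated alone (adjusted p = 0.0382). Hif1a and Egln1 thus moved in opposite directions with LPS+IFNg and in the same direction with TGFb.

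Ankrd37 (chromosome 8, 45996902 to 46005707, minus strand), which encodes an ankyrin repeat protein and is a known target of hypoxia-inducible factor, had the widest range of any member. Untreated values were 117 to 174 (median 148). In the LPS+IFNg libraries Ankrd37 was at 6.20, 7.74 and 5.65, which rest on 8, 9 and 5 reads. With IL4 it was at 310.2, 360.0 and 278, above every untreated library, and with TGFb at 105, 85.4 and 139, overlapping them. The log2 fold changes were -4.30 (SE 0.16, adjusted p = 5.9e-14) with LPS+IFNg, 1.10 (SE 0.16, adjusted p = 9.4e-05) with IL4 and -0.44 (SE 0.16, adjusted p = 0.0341) with TGFb. The SE is pooled over all groups and does not show the counting error of so few reads with LPS+IFNg. At such low values the size of the decrease also depends on the 1 added before the logarithm. The untreated mean was 22.6-fold that with LPS+IFNg. The TGFb call was lost without TGFb replicates 1 or 2, without untreated replicates 2, 4 or 5 (adjusted p = 0.0556 to 0.238), and when the 3 shallowest libraries were left out together (adjusted p = 0.172). Between IL4 and LPS+IFNg the means differed 48.4-fold.

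Ankrd37 shares 22.7% of its exon bases with Lrp2bp on the other strand. Whether counting used strand is not given in the sources used here, and reads of these genes cannot be told apart there. Lrp2bp was lower throughout, lowest with LPS+IFNg and highest with IL4, at 12.3 ± 1.72 untreated, 1.24 ± 0.42 with LPS+IFNg, 25 ± 6.30 with IL4 and 15.3 ± 3.73 with TGFb. Ufsp2, the other gene that overlaps Ankrd37 (3.70% of its exon bases), was at 451 ± 25.3 untreated and 522 ± 17.9 with LPS+IFNg.

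Among the other hypoxia targets, P4ha1, Ero1l, Vegfa and Higd1a rose with LPS+IFNg. P4ha1 (chromosome 10, 59323296 to 59373304, plus strand), the catalytic subunit gene of the hydroxylase that modifies collagen prolines, was at 369.9 to 450.2 untreated, 726, 680.0 and 1086 with LPS+IFNg and 739, 721 and 764 with TGFb. Both groups lay above all untreated libraries, at 0.98 (SE 0.11, adjusted p = 2.1e-07) and 0.85 (SE 0.11, adjusted p = 2.48e-06), and the LPS+IFNg change was 0.77 without replicate 3. Ero1l, which encodes an oxidase that forms disulfide bonds in the endoplasmic reticulum, was at 985 to 1210.4 untreated and 1707, 1589 and 3138 with LPS+IFNg, where replicate 3 was 1.90 times the mean of the others. Its log2 fold change was 0.95 (SE 0.14, adjusted p = 1.6e-05), and 0.64 without replicate 3. It also rose with IL4, at 1736, 1416 and 1423 (0.52, SE 0.14, adjusted p = 0.0167), a call lost without IL4 replicate 1 (adjusted p = 0.1).

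Vegfa (chromosome 17, 46016993 to 46032369, minus strand), the gene of the angiogenic growth factor, was at 464 to 526 untreated and 772, 707 and 850.2 with LPS+IFNg, a rise of 0.67 (SE 0.06, adjusted p = 4.63e-08). It was not called with IL4 (0.01) or TGFb (0.15, adjusted p = 0.0711). The TGFb change passed without untreated replicate 1 (adjusted p = 0.0426) and in a fit of only these 2 groups (adjusted p = 0.0316). Higd1a, which encodes a protein of the mitochondrial inner membrane, rose with LPS+IFNg from 122 ± 13.4 to 184 ± 19.4 (0.59, SE 0.10, adjusted p = 8.29e-05) and was not called with IL4 or TGFb.

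Bnip3 and Bnip3l encode receptors on the outer mitochondrial membrane that direct mitochondria to autophagy, and both rose with TGFb. Bnip3 (chromosome 7, 138890836 to 138909519, minus strand) was at 391 to 465 untreated, 333, 361 and 391 with LPS+IFNg, 578, 624 and 496 with IL4 and 908, 954 and 883 with TGFb. The TGFb mean was 2.12-fold higher (1.08, SE 0.07, adjusted p = 8.67e-10), IL4 raised it by 0.39 (SE 0.07, adjusted p = 0.000954), and it fell with LPS+IFNg, at -0.25 (SE 0.07, adjusted p = 0.00572). Bnip3l was at 563 ± 34.5 untreated and 810.3 ± 14.8 with TGFb (0.53, SE 0.06, adjusted p = 9.56e-07). Its smaller rises were not stable: that with LPS+IFNg (0.19) was lost without replicate 3 (adjusted p = 0.0957), and that with IL4 (0.21) without IL4 replicates 1 or 2 (adjusted p = 0.0611 and 0.114).

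Ddit4 (chromosome 10, 59949669 to 59951834, minus strand), whose product restrains the growth kinase mTOR, rose with IL4 and TGFb. It was at 219 to 325 untreated, 382, 546 and 487 with IL4 and 440.1, 399 and 402 with TGFb, at 0.80 (SE 0.17, adjusted p = 0.00239) and 0.62 (SE 0.17, adjusted p = 0.00496). The TGFb call was lost when the 3 shallowest libraries were left out (adjusted p = 0.057). With LPS+IFNg the values were 277, 288 and 151, so replicate 3 was below every untreated library and the others lay within their range. That change was not called (95% interval -0.57 to 0.13), and it was 0.08 without replicate 3. Mxi1, which encodes an antagonist of MYC, fell with LPS+IFNg from 981 ± 42.3 to 856 ± 77.7 (-0.20, SE 0.06, adjusted p = 0.00513) with overlapping libraries, a call lost without replicate 2 (adjusted p = 0.0519). Mxi1 was not called with IL4 or TGFb in the main fit. In fits of only the 2 groups compared it was called higher with each (adjusted p = 0.0369 and 0.0341).

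**Figure D4:**
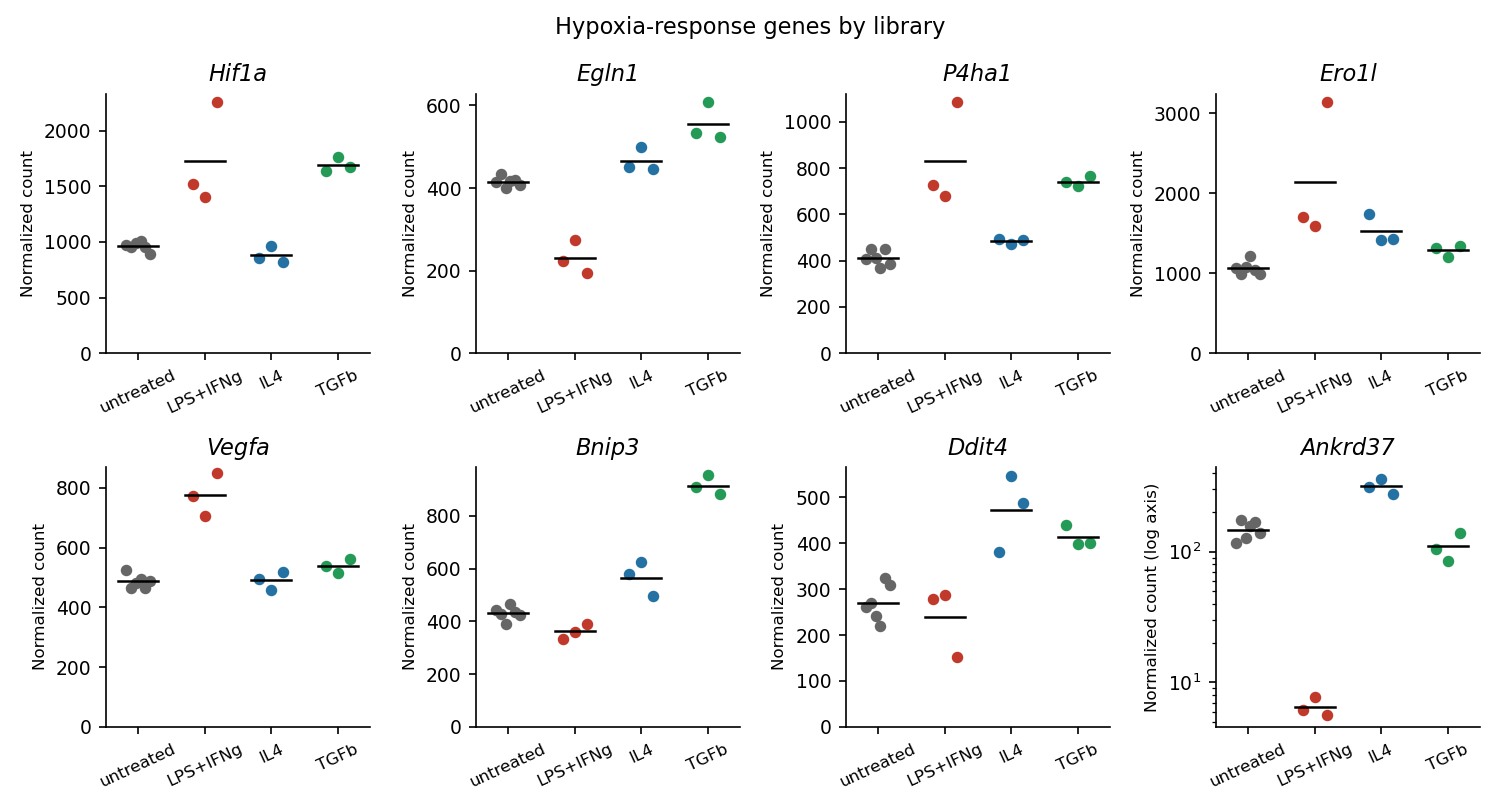
Normalized counts (y axis, from 0, except a log axis for Ankrd37) of 8 hypoxia-response genes in each library, by group (x axis), with group means as lines. Egln1 and Ankrd37 lie below all untreated libraries with LPS+IFNg while Hif1a, P4ha1, Ero1l and Vegfa lie above them, and Bnip3 is highest with TGFb.

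The members spanned a wide range of levels. Per kb of transcript, untreated cells held Aldoa at 10673 ± 358 (SD, n = 6), Pkm at 8404 ± 269 and Gapdh at 7886 ± 281, which ranked 16, 23 and 28 among the genes of the table with a gene model. Ldha, Pgam1 and Tpi1 ranked 61, 72 and 91, and Pfkfb4, at 37.4 ± 2.03, was the lowest member at rank 7981. The rate-setting hexokinase and phosphofructokinase genes lay far below the abundant enzymes, from 258 ± 17.6 for Hk2 to 1002 ± 45.3 for Hk3 in the hexokinase family, and from 259 ± 9.68 for Pfkl to 439.9 ± 22.0 for Pfkp in the phosphofructokinase family. In sum the 33 members took 1.41% to 1.49% of the table's total value in untreated libraries, 1.57% to 1.80% with LPS+IFNg, 1.46% to 1.495% with IL4 and 1.39% to 1.45% with TGFb. The LPS+IFNg libraries all lay above the untreated range on this measure.

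Other genes of the same pathways were read from 7 further lists, whose counts stand beside 29.5% of all genes tested higher and 29.4% lower with LPS+IFNg, 9.89% and 7.33% with IL4, and 24.1% and 23.4% with TGFb. Of 19 measured genes of other glycolytic enzymes and sugar or pyruvate carriers (29 listed), 5 rose and 5 fell with LPS+IFNg, 4 rose and 0 fell with IL4, and 6 rose and 4 fell with TGFb. With LPS+IFNg these were 26.3% in each direction, near the share over all genes. After quantile normalization 9 genes of this list fell with LPS+IFNg in place of 5. At the same total per library 2 fell with IL4 in place of 0. Slc2a6, a lysosomal sugar carrier gene, rose with LPS+IFNg from 818 ± 37.7 to 3765 ± 201 (log2 difference 2.20, SE 0.05, adjusted p = 5.23e-17). Eno3, the muscle enolase gene, fell from 324 ± 35.8 to 66.9 ± 5.10 (log2 difference -2.25, SE 0.09, adjusted p = 1.6e-13), in the opposite direction to Eno1 and Eno2. Gpd2, the gene of mitochondrial glycerophosphate dehydrogenase, rose from 328 ± 27.7 to 759.9 ± 173 (log2 difference 1.19, SE 0.11, adjusted p = 3.91e-08). With IL4 the carrier gene Slc2a9 rose from 62.8 ± 7.84 to 122 ± 7.38 (log2 difference 0.96, SE 0.13, adjusted p = 3.22e-05). With TGFb Slc2a8, a further carrier gene, rose from 97.3 ± 16.7 to 173 ± 9.92 (log2 difference 0.84, SE 0.13, adjusted p = 3.77e-05), and Adpgk, an ADP-dependent glucokinase gene, fell by 0.62 (SE 0.09, adjusted p = 1.81e-05). At an unadjusted p below 0.05 limma gave 2 lower with IL4. Without IL4 replicates 1 or 3 only 2 genes of this list rose with IL4, and 1 fell without IL4 replicate 2 or untreated replicate 4. Without TGFb replicate 2 only 3 rose with TGFb, and without TGFb replicate 3 or untreated replicate 4 only 2 fell.

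Pyruvate dehydrogenase passes the product of glycolysis to the mitochondria. Of 11 genes of its subunits, kinases and phosphatases and of pyruvate carboxylase, which also uses pyruvate (12 listed), 4 rose and 2 fell with LPS+IFNg, 3 rose and 0 fell with IL4, and 0 rose and 6 fell with TGFb, where the median log2 fold change of the list was -0.24. Pdp1, a phosphatase gene that counters Pdk1, rose with LPS+IFNg from 79.4 ± 9.96 to 176 ± 24.3 (log2 difference 1.14, SE 0.13, adjusted p = 3.41e-07). Pcx, the pyruvate carboxylase gene, rose from 354 ± 37.0 to 643 ± 21.6 (log2 difference 0.87, SE 0.08, adjusted p = 2.45e-08). Pdhx, a binding subunit gene of the complex, fell with TGFb from 780.0 ± 54.6 to 585 ± 27.4 (log2 difference -0.41, SE 0.07, adjusted p = 4.91e-05). At an unadjusted p below 0.05 limma gave 1 higher with TGFb and 0 lower with IL4. The count of 0 higher with TGFb was 1 without untreated replicate 1 or TGFb replicate 2.

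In the pentose phosphate pathway, which branches from glycolysis to make NADPH, all 8 listed genes were measured. With LPS+IFNg 2 rose and 3 fell, with IL4 0 rose and 4 fell, and with TGFb 2 rose and 5 fell. G6pdx, the gene of the entry enzyme, fell with TGFb from 3578 ± 206 to 2179.8 ± 10.9 (log2 difference -0.71, SE 0.07, adjusted p = 2.86e-07), while H6pd, its counterpart in the endoplasmic reticulum, rose from 308 ± 22.0 to 589 ± 51.3 (log2 difference 0.93, SE 0.09, adjusted p = 5.44e-08). With LPS+IFNg Rpe rose from 489.7 ± 15.2 to 739.8 ± 40.0 (log2 difference 0.59, SE 0.05, adjusted p = 1.02e-08). At an unadjusted p below 0.05 limma gave 0 higher with IL4 as well, and 1 was called without IL4 replicate 1. The count of 5 lower with TGFb was 3 without TGFb replicate 3. Of 6 measured glycogen genes (8 listed), 1 rose and 4 fell with LPS+IFNg, 1 rose and 0 fell with IL4, and 2 rose and 1 fell with TGFb. Gbe1, the glycogen branching enzyme gene, was the exception with LPS+IFNg, where it rose from 257 ± 13 to 508 ± 51.7 (log2 difference 0.97, SE 0.08, adjusted p = 6.66e-09), and with TGFb it fell by 0.95 (SE 0.08, adjusted p = 2.24e-08). Pygb, a glycogen phosphorylase gene, fell with LPS+IFNg from 1353 ± 31.2 to 954 ± 30.6 (log2 difference -0.50, SE 0.04, adjusted p = 3.18e-09). No glycogen gene was lower with IL4 at an unadjusted p below 0.05 in limma either.

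Of 8 measured genes of other HIF subunits and oxygen sensors (9 listed), 5 rose and 3 fell with LPS+IFNg, 3 rose and 0 fell with IL4, and 3 rose and 1 fell with TGFb. Epas1, which encodes the related subunit HIF2A, fell with LPS+IFNg from 1310.5 ± 53.9 to 373 ± 17.9 (log2 difference -1.81, SE 0.05, adjusted p = 2.51e-16), opposite to Hif1a. Epas1 rose with IL4 to 2046 ± 64.9, by 0.64 (SE 0.05, adjusted p = 1.65e-08). Cited2, which encodes an inhibitor of HIF1A activity, rose with LPS+IFNg by 1.2 (SE 0.09, adjusted p = 9.81e-10) and with TGFb by 1.13 (SE 0.09, adjusted p = 5.95e-09). Vhl, the gene of the ligase subunit that binds hydroxylated HIF1A, rose with TGFb from 139.9 ± 11.4 to 257 ± 13.7 (log2 difference 0.88, SE 0.11, adjusted p = 3.91e-06). Arnt2, a partner subunit gene, rose with IL4 from 26.1 ± 6.10 to 91.9 ± 10.5 (log2 difference 1.80, SE 0.19, adjusted p = 2.65e-06). No gene of this list was lower with IL4 at an unadjusted p below 0.05 in limma. Without LPS+IFNg replicate 3 only 1 gene of this list was lower, and without TGFb replicates 1 or 2 none was lower with TGFb.

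Of 33 measured genes on a list of other hypoxia-induced genes (40 listed), 11 rose and 12 fell with LPS+IFNg, 5 rose and 4 fell with IL4, and 17 rose and 7 fell with TGFb, where the list's median log2 fold change was 0.26 beside 0.01 over all genes. The counts with LPS+IFNg are 33.3% and 36.4% of the list, near the shares over all genes, and those with TGFb are 51.5% and 21.2%. Selenbp1 fell with LPS+IFNg from 464 ± 45.3 to 131 ± 10.7 (log2 difference -1.82, SE 0.09, adjusted p = 5.86e-12). Tfrc, the transferrin receptor gene, rose with IL4 from 3250.2 ± 176 to 7997 ± 561 (log2 difference 1.30, SE 0.07, adjusted p = 3.5e-10). Fos, an immediate early gene, rose with TGFb by 2.11 (SE 0.26, adjusted p = 2.31e-06) and fell with LPS+IFNg, at -1.64 (SE 0.26, adjusted p = 2.69e-05). Car12, a carbonic anhydrase gene, fell with TGFb from 152 ± 7.27 to 73.6 ± 2.77 (log2 difference -1.03, SE 0.11, adjusted p = 2.55e-07).

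Of 16 measured genes of regulators of glycolysis genes (17 listed), 7 rose and 6 fell with LPS+IFNg, 3 rose and 0 fell with IL4, and 4 rose and 4 fell with TGFb, with 0 lower with IL4 at an unadjusted p below 0.05 in limma too. Arrdc4 encodes a restraint on glucose uptake and rose with LPS+IFNg from 68.3 ± 5.03 to 371 ± 73.8 (log2 difference 2.41, SE 0.16, adjusted p = 1.61e-10). Myc, the gene of a transcription factor that raises many glycolytic genes, rose from 20.9 ± 5.70 to 114 ± 53.2 (log2 difference 2.34, SE 0.25, adjusted p = 1.83e-07). Sesn1, a stress-response gene that lowers mTOR activity, fell with LPS+IFNg from 425 ± 25.4 to 105 ± 7.33 (log2 difference -2.01, SE 0.07, adjusted p = 3.16e-14), and rose with IL4 by 0.78 (SE 0.07, adjusted p = 3.92e-07). With TGFb Sesn2, a related gene, fell from 216 ± 12.8 to 128 ± 19.9 (log2 difference -0.76, SE 0.11, adjusted p = 9.5e-06), and Prkaa2, a catalytic subunit gene of the energy-sensing kinase AMPK, fell by 0.57 (SE 0.07, adjusted p = 1.19e-06).

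The stimuli were also compared with each other. Between LPS+IFNg and IL4, 14 members were higher and 12 lower with LPS+IFNg, beside 28.8% of all genes tested in each direction. Against TGFb 14 were higher and 13 lower with LPS+IFNg, beside 31.9% and 30.8% of all genes. Between IL4 and TGFb 9 were higher with IL4 and 11 higher with TGFb, beside 20.7% and 19% of all genes. Higher with LPS+IFNg than with either other stimulus were Hk3, Pgk1, Eno1, Eno2, Pkm, Vegfa, Higd1a and Ero1l. The difference of Ero1l from IL4 was lost without LPS+IFNg replicate 3 (0.12, adjusted p = 0.247) or IL4 replicates 2 or 3 (adjusted p = 0.109 and 0.103). Lower with LPS+IFNg than with either were Pfkl, Pfkm, Aldoc, Pfkfb3, Pfkfb4, Egln1, Ankrd37, Bnip3, Ddit4 and Mxi1, of which the difference of Pfkfb3 from IL4 was lost without LPS+IFNg replicates 1 or 2 or IL4 replicate 2 (adjusted p = 0.052 to 0.095). Without LPS+IFNg replicate 3 the differences from TGFb were smaller for Pkm (0.16 in place of 0.26), Eno1 (0.14 in place of 0.21), Ero1l (0.36 in place of 0.67) and Ddit4 (-0.55 in place of -0.85). In fits of only the 2 groups compared, Eno1 and Pkm were no longer called against TGFb (adjusted p = 0.0501 and 0.054). The same held there for Ero1l and Pfkfb3 against IL4 (adjusted p = 0.165 and 0.105). After quantile normalization Eno1 was not called against TGFb (0.07, adjusted p = 0.257).

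The widest difference after Ankrd37 was in Hk3, 6.13-fold higher with LPS+IFNg than with TGFb (2.59, SE 0.10, adjusted p = 1.35e-13) and 2.21-fold higher with IL4 than with TGFb (1.14, SE 0.10, adjusted p = 7.03e-08). Between IL4 and TGFb, Slc2a1 (-1.01, SE 0.06, adjusted p = 3.81e-10), Pfkfb3 (-0.97, SE 0.12, adjusted p = 2.02e-06), Hif1a (-0.95, SE 0.12, adjusted p = 2.92e-06) and Bnip3 (-0.70, SE 0.08, adjusted p = 2.26e-06) were lower with IL4. Ankrd37 was 2.88-fold higher with IL4 than with TGFb (1.54, SE 0.19, adjusted p = 2.55e-06). Hk2 and Pfkp did not pass between LPS+IFNg and IL4 in all 15 libraries (log2 differences 0.01 and 0.04). Without LPS+IFNg replicate 3 both were lower with LPS+IFNg, at -0.30 (adjusted p = 0.000478) and -0.19 (adjusted p = 0.00508). Ldha did not pass between LPS+IFNg and IL4 (95% interval -0.13 to 0.07), and was higher with each of them than with TGFb, by 0.30 and 0.33.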

How the data were processed

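RNA was sequenced from 15 libraries in 4 groups, taken from the stimulation in the labels, and replicate numbers follow accession order and serve as names alone. Per the labels' protocols, RNA was extracted with TRIZOL and libraries were made with an Illumina TruSeq kit. TopHat2 2.0.3, Partek 6.6, R 3.0.2, DESeq2 and the build mm10 are named in the submitters' processing notes. The annotation, counting rule and use of strand are not given in the sources used here. The deposited table holds a normalized signal, that is, read counts which the authors appear from the values to have divided by a factor for each library, with values below 1 set to 1. In the library with the lowest share, 99.8% of values were whole multiples of 1 read within 0.05 reads. Of 11201 genes, 276 had a value at that floor of 1, none of them a member. All 15 value columns were used and 0 were left out.

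Log2(value + 1) was fitted in 1 limma 3.58.1 model (R 4.3.3, empirical Bayes with trend) over all libraries, for the 11138 genes with at least 10 in at least 3 libraries. Calls used an adjusted p below 0.05 (Benjamini-Hochberg, for each comparison alone). Isoenzyme shares were tested by exact permutation over libraries. Gene positions and transcript lengths are from GENCODE M21 (GRCm38), where 33 of 33 members had 1 gene model, and promoter sequences from RefSeq (GRCm38.p6), matched for 32 members by symbol, Ero1l as Ero1a. Scripts were tested on simulated data. The members and lists were chosen with earlier results of these data known. Every member in the table is named, with up to 3 called genes per further list and stimulus, taken by size of change where the higher group's mean reached 50. Of the genes this rule selects, 1 is not reported here. Alternatives were other pseudocounts (0.5 and 10), other low-value filters (none and 50), same total per library, quantile normalization, no variance trend, only the groups compared, leaving out each library or the 3 with the fewest reads, and, chosen after seeing the data, library weights. Counting error limits low values, and the counts of reads cover that error only. Count-based tests were not run.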

Additional observations from a re-analysis of the deposited data

How the results depend on the processing

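The 198 values of single members (33 members in 6 comparisons) were recomputed 3465 times in all. Of these, 119 lost the call, 61 gained it and 10 changed direction with a call before or after. The other 3275 kept the call or stayed uncalled, and a change of direction was not counted where neither value was called. Hk2 with LPS+IFNg, for example, was uncalled at 0.24 and at -0.07 without replicate 3. With quantile normalization Aldoa (-0.0153), Tpi1 (-0.0537), Pkm (-0.0474) and Ldha (-0.0774) turned lower with LPS+IFNg, Pkm turned lower with TGFb (-0.259), 10 members instead of 18 were higher with LPS+IFNg and 5 instead of 3 were lower with IL4. That method sets values by rank, and Pkm was at the same -0.259 with IL4. At the same total per library Ldha with LPS+IFNg was -0.0013. Between LPS+IFNg and IL4, Hk2 was -0.257 and Pfkp -0.172 with library weights, and leaving out 1 library gave -0.303 to 0.173 for Hk2 and -0.189 to 0.173 for Pfkp, the lowest values without LPS+IFNg replicate 3. Members higher with IL4 numbered 11, and 18 with library weights, 19 with only the groups compared and 6 to 11 with 1 library left out, the lowest without IL4 replicate 1. The causes were not tested. Calls held in every setting for 17 of 29 members with LPS+IFNg, 8 of 14 with IL4 and 16 of 22 with TGFb. Of 210 recomputed member counts 205 stayed within 1.5 times the main count, as did 766 of 798 for the further lists. All 270 recomputed shares kept their direction where they had passed. With 1 library left out this was bound to follow, since the groups of those shares did not overlap. The sizes did move: with LPS+IFNg the difference from untreated ran from 11.4 to 18.5 points for Pfkp and from -5.26 to -2.15 for Pfkfb4. Count tests (edgeR and DESeq2) were not run, since values at the floor of 1 hold no read count. No paired analysis was possible because the labels carry no replicate numbers shared between groups. Depth limits Ankrd37 with LPS+IFNg, at 5 to 9 reads per library.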
